A study of Homo sapiens with 8 samples.

Results

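The HOX genes encode homeodomain transcription factors that give cells their position along the body axis, and in humans they lie in 4 clusters named HOXA to HOXD. Genes of equal number in different clusters, called paralogues, descend from a common ancestor, and the number runs from 1 at the end of a cluster used early and anteriorly to 13 at the end used late and posteriorly. Non-coding transcripts, many of them antisense to the coding genes, are interspersed, and include HOTAIR in HOXC, and HOTTIP and HOTAIRM1 at opposite ends of HOXA. HOX clusters are classical targets of the polycomb repressive complex 2 (PRC2), whose enzymes EZH1 and EZH2 methylate histone H3 on lysine 27.

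HOX transcripts were examined in HepG2 cells, an established human hepatocarcinoma line. Cells of the EZHi group received a combination of UNC1999 (1 µM) and valemetostat tosylate (1 µM), which inhibit EZH1 and EZH2, over 4 days. Control cells received the solvent DMSO alone, at 0.2% according to the labels, for the same time. Each group had 4 mRNA libraries numbered 1 to 4, sequenced as paired reads of 150 bp. All libraries came from a single tumour line, both inhibitors were always given together, and inhibitor effects cannot be told apart from each other. The study describes the libraries of each group as independent biological replicates, and the p-values measure the spread between them.

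Members were taken by symbol, as every row beginning with HOXA, HOXB, HOXC or HOXD plus HOTAIR, HOTTIP and HOTAIRM1, which gave 46 of the 25603 genes in the table. They comprised 34 coding genes and 12 non-coding transcripts, with 17 members in HOXA, 6 in HOXB, 13 in HOXC and 10 in HOXD. On GRCh38 the outermost members of HOXC spanned chr12:53935328-54056030 and those of HOXD chr2:176092721-176190907, and HOXA lies on chromosome 7. The HOXB cluster lay within chr17:48528526-48728750, and HOXB1, HOXB2, HOXB4, HOXB5 and HOXC5 were not analysed here.

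Levels are length-corrected log2 values, and for comparisons between genes they are also given as estimated FPKM, which relate fragments to transcript length and library size. Of the 46 members, 34 reached a mean estimated FPKM of 0.1 and were tested with limma together with all other genes above that level (20153 in total). A gene was called when its adjusted p was under 0.05. The 12 members below it were HOXA10-AS, HOTTIP, HOXB3, HOXB6, HOXB8, HOXB9, HOXB13, HOXC-AS2, HOXC-AS3, HOXC4, HOXD8 and HOXD12. HOXC11, HOXC13-AS and HOXD13 passed only because of their EZHi libraries, whereas the other 31 also had a vehicle mean above the limit. A vehicle mean above the limit does not show that reads were present. HOXA9, at 0.231 in vehicle, had vehicle values within 0.033 log2 unit, as occurs near the floor of the scale.

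The liver identity of the cells was clear, since 10 of 10 hepatocyte markers were found, at mean estimated FPKM from 156 to 16199. Among them only FGB, a fibrinogen chain, was called (higher by 0.92 on the log2 scale). With the replicate block APOB (0.36, adjusted p = 0.00155), APOA1 (0.42, adjusted p = 0.00812) and ALB (-0.28, adjusted p = 0.0314) were called too. Of the other lineages, 0 of 2 tested mesenchymal markers and 0 of 1 tested blood marker were called, although LYZ was high in both groups, and CD3E and COL3A1 were below the limit. Among 3 endothelial markers CDH5 and VWF were called higher, by 2.28 and 1.45, and PECAM1 was not. The summed endothelial level ran from 2.26 to 2.72 estimated FPKM in vehicle and from 3.42 to 7.21 in EZHi libraries. Its part in the HOX results was not tested.

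In vehicle-treated cells, HOX expression was led by the anterior side of HOXA. HOXA-AS2, an antisense transcript beside HOXA3, had the highest level at 10.2 estimated FPKM. It was followed by HOXA3, required for thymus and parathyroid formation, at 6.59, and HOXA5, involved in lung development, at 4.44. HOXD1 came next at 1.22. All others were under 1, from 0.662 for HOXA4 down to 0.00881 for HOXB9.

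After EZHi treatment 9 members reached an estimated FPKM of 1, compared with 4 in vehicle. HOXA-AS2 at 11.1, HOXA3 at 6.85 and HOXA5 at 4.57 still ranked highest. Below them came HOXD1 at 2.84, HOXC9 at 1.68, HOXA7 at 1.32, HOXD10 at 1.12, HOXD4 at 1.11 and HOXA13 at 1.01. By estimated FPKM each called member was thus below HOXA3 and HOXA5, which were not called. Reads over exon bases shared with another gene were left out of the counts, whereas the length correction used the whole transcript. Levels of genes such as HOXD1 (60.1% of exon bases shared) and HOXA7 (62.5%) may therefore be understated in this ranking and in that of vehicle-treated cells.

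EZHi treatment raised 19 of the 34 tested members and lowered none that passed the test. The 19 include HOXC11 and HOXD13, which reached the limit for testing only through their EZHi libraries. Over all genes tested, 8.85% were called higher and 4.27% lower. By limma, 0 members were lower even at an unadjusted p under 0.05. Among the called members, 12 were raised at least 2-fold, compared with 3.21% of all genes tested. The median log2 fold change of the 34 members was 0.50, and that of all genes tested was -0.0077. The values of the 2 groups were separated, with each EZHi library above each vehicle library, for 21 tested members, whereas this held for 10.7% of all genes tested.

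Expression level was taken into account because low genes were called higher more often. Of genes under an estimated FPKM of 1, 13.8% were called higher, and 17 of 29 members in that range were. HOXC11 and HOXD13 are among these 17. Between 1 and 10, the share was 11.3% and 2 of 4 members were called. The single member at 10 or above, HOXA-AS2, was not called, and 2.73% of genes at that level were called higher.

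**Figure D1:**
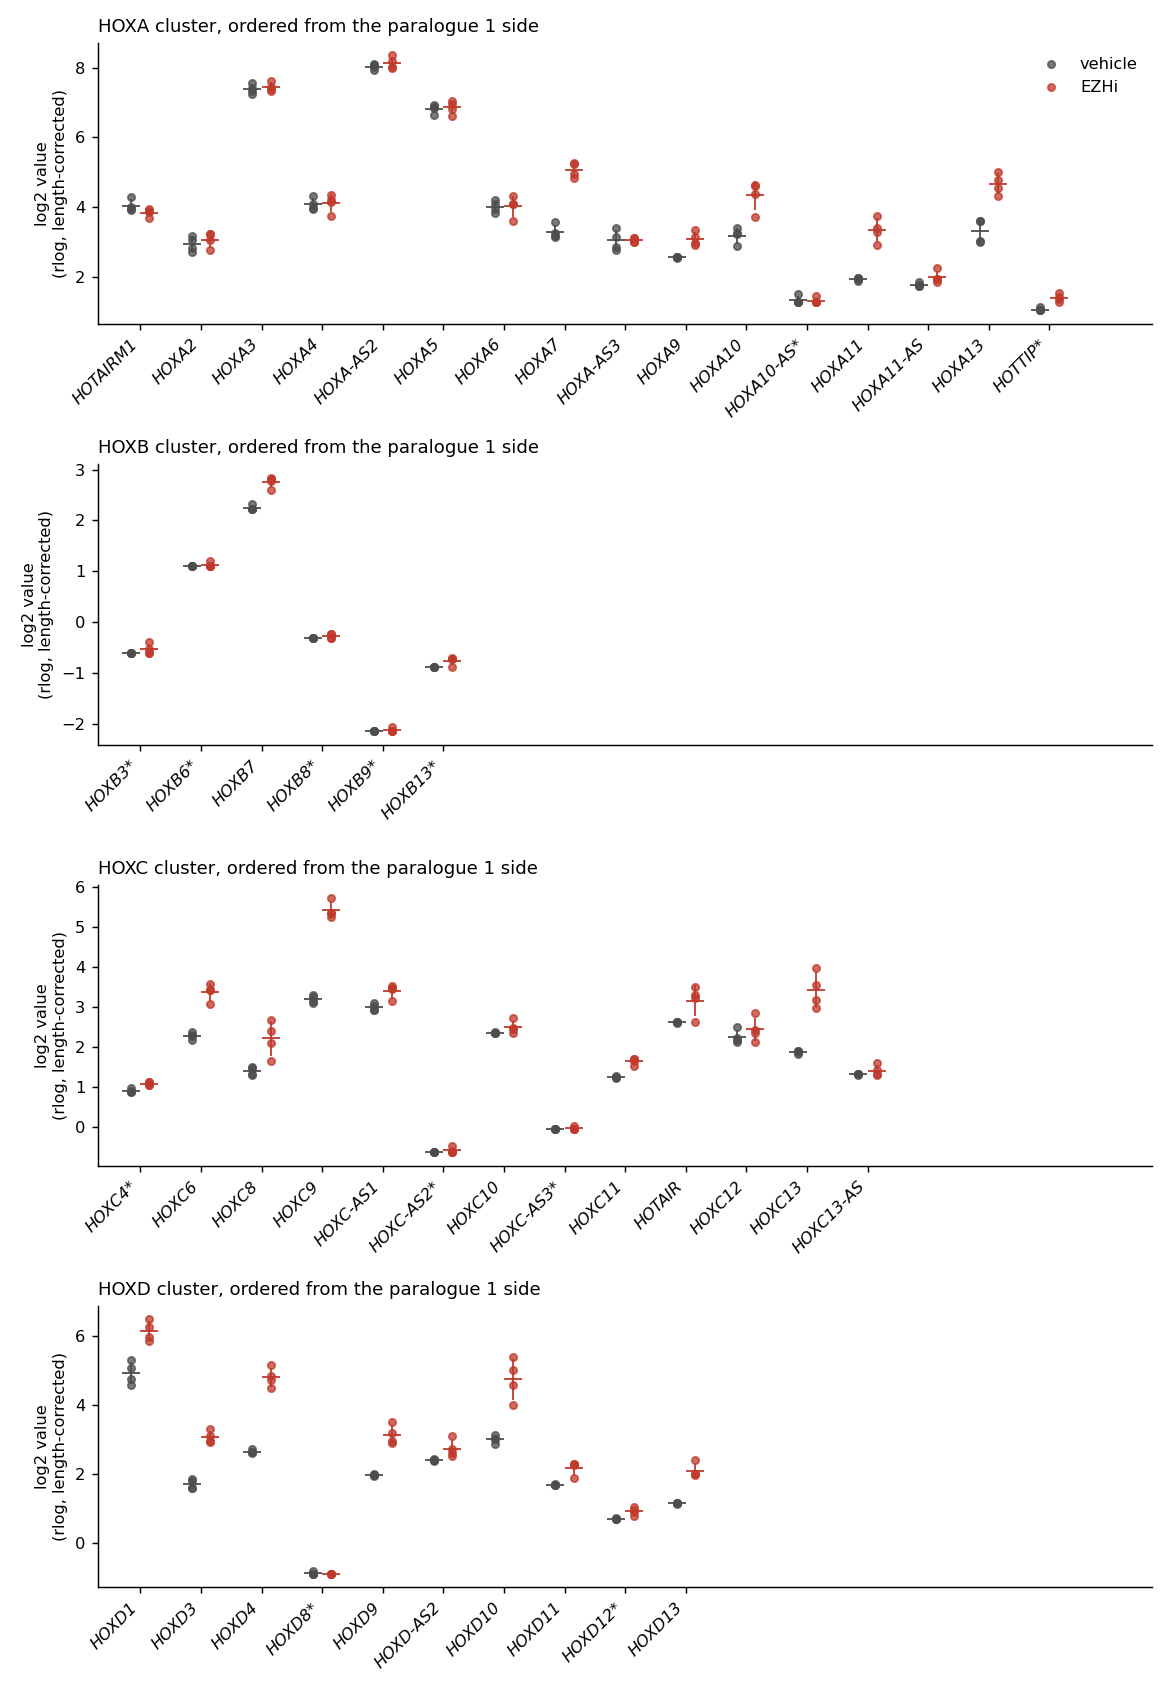
Length-corrected log2 values of 45 members in each of 4 vehicle (grey) and 4 EZHi (red) libraries, with 1 panel per cluster and members ordered from the paralogue 1 side. Points are libraries, horizontal marks are group means and vertical bars are SDs, and an asterisk marks members below the limit for testing. HOXA3 and HOXA5 had similar values in both groups, whereas HOXA7, HOXC9 and HOXD4 were separated by more than 1 log2 unit.

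The HOXA cluster was split along its length. Paralogues 2 to 6 were not called in 5 of 5 cases, with log2 fold changes from 0.01 to 0.13. Paralogues 7 to 13 were raised in 5 of 5 cases, with log2 fold changes from 0.52 to 1.79. Of all genes under an estimated FPKM of 1, where these 5 lie, 13.8% were called higher. The boundary between HOXA6 and HOXA7 was placed after these values were seen.

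HOXA7 showed the largest rise of the cluster. Its values were 3.56, 3.13, 3.18 and 3.25 in vehicle libraries 1 to 4, and 4.83, 5.27, 4.94 and 5.25 in the EZHi libraries of the same order. Every EZHi library lay more than 1 log2 unit above the highest vehicle library. The log2 fold change was 1.79 ± 0.14 (SE), with an adjusted p of 3.77e-05. Of the exon bases of HOXA7, 62.5% are shared with the antisense HOXA-AS3 on the other strand. Reads were counted without strand in union mode, which assigns a read over exons of both genes to neither. The values of HOXA7 and HOXA-AS3 therefore rest on the bases they do not share.

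HOXA11, which patterns the forearm and the uterus, had low and nearly equal vehicle values. It was at 1.96, 1.92, 1.88 and 1.95 in vehicle and at 3.39, 3.75, 2.90 and 3.28 in EZHi libraries. The groups did not overlap, and EZHi library 3 was the lowest of its group. HOXA11 rose by 1.402 ± 0.152 (SE) on the log2 scale (adjusted p = 0.000249). Its vehicle libraries spanned less than 0.1 log2 unit, as did, among called members, those of HOXA9, HOXC11, HOXC13, HOXD9, HOXD11 and HOXD13. Such narrow spans occur near the floor of the scale, where vehicle levels may not reflect measured reads. The sizes of these rises and their errors are therefore uncertain.

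HOXA13, which acts in the digits and the urogenital tract, was more variable in vehicle, at 3.60, 3.59, 3.04 and 2.99. It was at 4.78, 5.02, 4.31 and 4.55 in EZHi libraries, again without overlap. The rise was 1.36 ± 0.20 (SE), with an adjusted p of 0.00146. HOXA10 rose by 1.15 (adjusted p = 0.0047) and HOXA9, a regulator of blood progenitors, by 0.52 (adjusted p = 0.00738).

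The anterior HOXA genes were measured as precisely, so their small differences have narrow errors. In vehicle libraries HOXA3 was at 7.39 ± 0.12 (SD, n = 4), and in EZHi libraries it was at 7.45 ± 0.13 (SD, n = 4). HOXA5 was at 6.82 ± 0.13 (SD, n = 4) and 6.86 ± 0.18 (SD, n = 4), in the same order. Their log2 fold changes were 0.06 ± 0.10 (SE) and 0.04 ± 0.11 (SE), with adjusted p of 0.773 and 0.887. HOXA2, HOXA4 and HOXA6 differed by 0.13, 0.03 and 0.01, respectively. These differences lay within the spread between libraries, and their groups overlapped.

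HOXA6 and HOXA7 are neighbours on either side of this boundary, and HOXD4 showed the largest rise of HOXD. Their promoter sequences, 250 bases before the RefSeq transcription start on GRCh38.p14, are shown because HOXA6, which was not called, and HOXA7, which was, have nearly equal CpG content, whereas HOXD4, also called, holds few CG dinucleotides. CG dinucleotides are in capitals, and each sequence is written 5′ to 3′ on the strand of its gene. The windows are chr7:27147775-27148024 (minus strand) for HOXA6, chr7:27156676-27156925 (minus strand) for HOXA7 and chr2:176151300-176151549 (plus strand) for HOXD4.
HOXA6: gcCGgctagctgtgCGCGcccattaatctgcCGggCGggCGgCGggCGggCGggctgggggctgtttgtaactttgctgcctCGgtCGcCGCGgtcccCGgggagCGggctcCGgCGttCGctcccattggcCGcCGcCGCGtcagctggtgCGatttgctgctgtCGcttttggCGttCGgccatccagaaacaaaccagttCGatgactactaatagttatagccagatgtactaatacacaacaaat
HOXA7: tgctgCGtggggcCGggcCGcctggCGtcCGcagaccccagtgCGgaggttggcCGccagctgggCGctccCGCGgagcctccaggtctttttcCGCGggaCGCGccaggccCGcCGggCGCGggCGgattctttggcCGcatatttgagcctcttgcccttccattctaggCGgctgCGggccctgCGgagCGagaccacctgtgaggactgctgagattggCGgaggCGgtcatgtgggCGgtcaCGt
HOXD4: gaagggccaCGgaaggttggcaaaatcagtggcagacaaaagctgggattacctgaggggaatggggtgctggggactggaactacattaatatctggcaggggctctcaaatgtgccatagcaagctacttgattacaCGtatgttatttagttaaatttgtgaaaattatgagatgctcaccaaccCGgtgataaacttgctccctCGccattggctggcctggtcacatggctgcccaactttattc

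HOXA6, which was not called, has 27 CG dinucleotides in this window, HOXA7 has 28 and HOXD4 has 4. The tables held promoters for 23 of the 46 members, and the median number of CG dinucleotides was 20, compared with 11 over all 27305 promoters. It was 21 for 11 called members and 8.5 for 8 members tested and not called, although 3 of the latter are antisense transcripts with fewer than 7 (HOXA-AS2, HOXA-AS3 and HOXD-AS2). Among coding HOXA genes the median was 18.5 for 4 of paralogues 2 to 6 and 20 for 5 of paralogues 7 to 13. A search of both strands found TATAAA in 4 of 23 members and in 11.1% of all promoters. The HOX-PBX motif TGATTNAT, which does not contain TATAAA, was in 2 of 23 members and in 2.59% of all promoters.

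**Figure D2:**
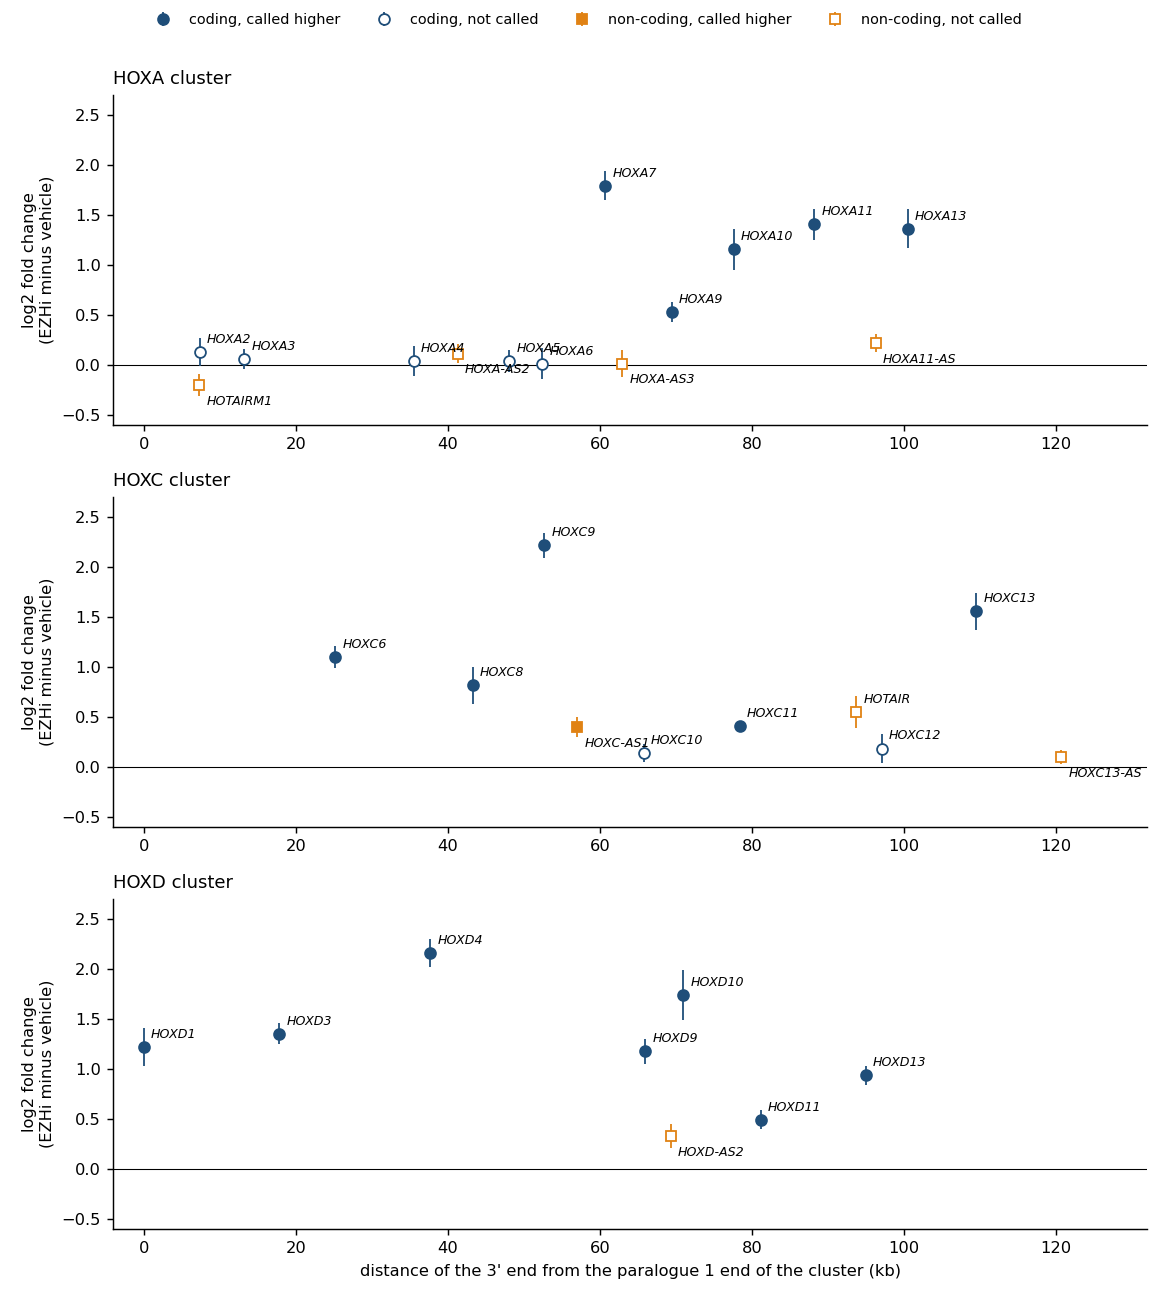
Log2 fold change (EZHi minus vehicle) of tested members along HOXA, HOXC and HOXD, against the distance in kb of the 3′ end of the gene from the paralogue 1 end of the cluster. Circles are coding and squares non-coding members, filled symbols were called higher, and bars are standard errors. In HOXA the 5 genes from HOXA2 to HOXA6 lie at 7.36 to 52.4 kb near the zero line, and the 5 called genes begin with HOXA7 at 60.7 kb, whereas in HOXD the called genes extend from HOXD1 to HOXD13.

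In HOXD, all 7 tested coding genes were raised, from paralogue 1 to paralogue 13, although HOXD13 was testable only through its EZHi libraries. Over all genes tested, 8.85% were called higher. HOXD4, active in the hindbrain and neck region, was at 2.74, 2.61, 2.65 and 2.63 in vehicle and at 5.17, 4.73, 4.84 and 4.50 in EZHi libraries. Each EZHi library was well above the vehicle range. The log2 fold change was 2.16 ± 0.14 (SE), with an adjusted p of 1.04e-05.

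HOXD10, which specifies lumbar motor neurons, was at 3.02, 2.88, 3.15 and 3.01 in vehicle and at 4.60, 4.00, 5.39 and 5.03 in EZHi libraries. The groups did not overlap, but its EZHi libraries were the most dispersed of any tested member, with an SD of 0.60. This gave a log2 fold change of 1.74 ± 0.25 (SE), with an adjusted p of 0.0015. HOXD10 shares 18.2% of its exon bases with HOXD11 on the same strand.

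HOXD3 was at 1.61, 1.86, 1.81 and 1.60 in vehicle and at 2.95, 3.31, 3.10 and 2.92 in EZHi libraries. Its libraries of equal number differed by similar amounts, from 1.29 to 1.46. The log2 fold change was 1.35 ± 0.11 (SE), with an adjusted p of 3.47e-05. HOXD1 rose by 1.22 (adjusted p = 0.00215), HOXD9 by 1.17 (0.000228), HOXD13, a digit-patterning gene, by 0.94 (0.000175) and HOXD11 by 0.49 (0.00768). HOXD1 shares 60.1% of its exon bases with opposite-strand HAGLR and other transcripts.

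HOXC contained the member with the largest rise. HOXC9, expressed in the thoracic region, was at 3.25, 3.29, 3.09 and 3.15 in vehicle and at 5.24, 5.72, 5.34 and 5.35 in EZHi libraries. Every EZHi library lay more than 1 log2 unit above the highest vehicle library. The difference was 2.22 ± 0.12 (SE), with an adjusted p of 5.93e-06.

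HOXC13, required for hair and nails, was at 1.90, 1.86, 1.82 and 1.89 in vehicle and at 3.17, 3.98, 2.98 and 3.56 in EZHi libraries. It was separated in all libraries, although the EZHi values ranged over 1.00 log2 unit. The log2 fold change was 1.55 ± 0.19 (SE), with an adjusted p of 0.000452.

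HOXC6 was at 2.37, 2.17, 2.29 and 2.27 in vehicle and at 3.42, 3.57, 3.07 and 3.42 in EZHi libraries. The groups were again apart, with EZHi library 3 the lowest of the treated libraries. The rise was 1.10 ± 0.11 (SE), with an adjusted p of 0.000177. HOXC8 rose by 0.81 (adjusted p = 0.0169) and HOXC11 by 0.40 (0.00133), whereas HOXC10 (0.14, adjusted p = 0.368) and HOXC12 (0.18, 0.483), which lie between called genes, were not called. The HOXC8 call was lost without vehicle library 4 (adjusted p = 0.0524) or without EZHi library 1 (0.0521).

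HOXB7 was the sole testable member of HOXB. It was at 2.23, 2.22, 2.33 and 2.23 in vehicle and at 2.78, 2.60, 2.81 and 2.83 in EZHi libraries. All EZHi libraries were above all vehicle libraries, with a log2 fold change of 0.50 ± 0.08 (SE) and an adjusted p of 0.002. HOXB3, HOXB6, HOXB8, HOXB9 and HOXB13 had estimated FPKM of 0.00893 to 0.0852 in EZHi libraries, and their groups overlapped.

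**Figure D3:**
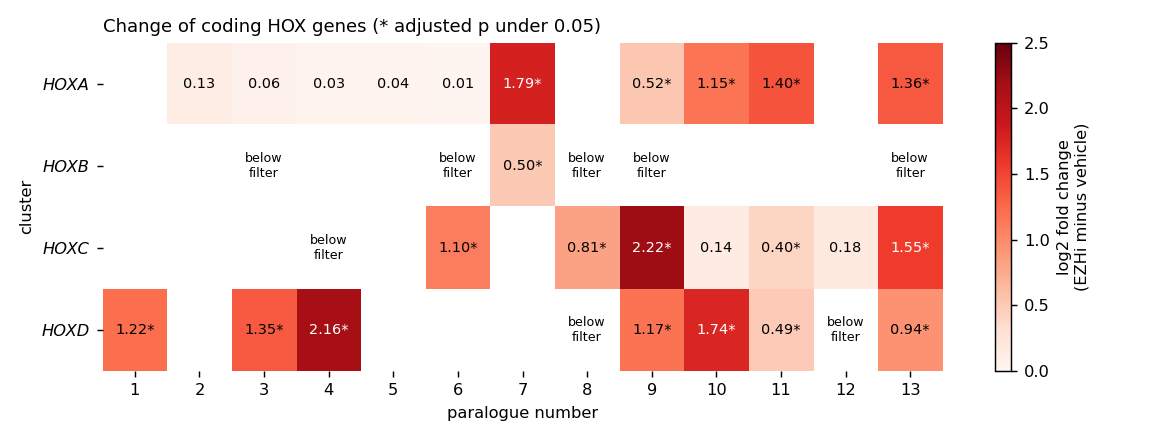
Log2 fold change (EZHi minus vehicle, colour and number) of coding HOX genes by cluster (rows) and paralogue number (columns), where an asterisk marks an adjusted p under 0.05. Blank cells hold no gene reported here. At paralogue 4, HOXD4 rose by 2.16 and HOXA4 differed by 0.03, whereas both tested paralogues 7, all 3 tested paralogues 9 and all 3 tested paralogues 13 were called. HOXC11 and HOXD13 were testable only through their EZHi libraries.

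Paralogues of equal number often changed to different extents. The difference between the changes of 2 paralogues was tested in 16 pairs with a two-sided exact permutation test over the 70 assignments of libraries, where the smallest possible p is 0.0286. In 12 pairs the changes differed (adjusted p = 0.0381 over 16 pairs, n = 4 per group, exact test). All 12 had the smallest possible p, so their adjusted p depends on how many of the listed pairs reached it. The test treated libraries as unpaired, although replicate numbers paired them, so its p-values do not account for that pairing. HOXD4 rose more than HOXA4 by 2.12 on the log2 scale, HOXD3 more than HOXA3 by 1.30 and HOXC6 more than HOXA6 by 1.09. HOXC9 exceeded HOXA9 by 1.69 and HOXD9 by 1.04.

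HOXA members were not always the lesser ones. The change of HOXA7 was greater than that of HOXB7 by 1.29, that of HOXA10 greater than that of HOXC10 by 1.02, and that of HOXA11 greater than those of HOXC11 and HOXD11 by 1.00 and 0.91. No difference passed the test for HOXA10 and HOXD10 (0.59, exact p = 0.343), HOXA13 and HOXC13 (0.19, exact p = 0.343), HOXA13 and HOXD13 (-0.42, exact p = 0.114) or HOXC11 and HOXD11 (0.09, exact p = 0.486). Since the values shrink the differences of genes with few reads, contrasts between paralogues of different level also carry that processing. HOXC11 and HOXD13 were testable only through their EZHi libraries. Vehicle values of HOXA9, HOXA11, HOXC11, HOXC13, HOXD9, HOXD11 and HOXD13 had the narrow spans seen near the floor, so the sizes of their contrasts are uncertain.

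By paralogue number, 11 of 13 tested coding genes numbered 9 to 13 were called, compared with 5 of 8 numbered 4 to 8 and 1 of 3 numbered 2 to 3. The 11 include HOXC11 and HOXD13, which were testable only through their EZHi libraries. HOXD1, numbered 1 and so outside these ranges, was called too. Over all genes tested 8.85% were called higher, and 13.8% of those under an estimated FPKM of 1. The genes not called were all in HOXA among numbers 2 to 8, and were HOXC10 and HOXC12 among the higher numbers. These counts are given without a test.

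Coding and non-coding members are given separately, and the difference between their counts was not tested. Among the 26 tested coding genes 18 were called higher, with a median log2 fold change of 0.87, whereas 1 of 8 tested non-coding members was called, with a median of 0.16. Over all genes tested, 11.4% of protein-coding genes and 4.74% of long non-coding RNAs were called higher. The non-coding member called was HOXC-AS1, with a log2 fold change of 0.40 ± 0.10 (SE) and an adjusted p of 0.0264. This call was lost in 6 of 8 fits with 1 library left out, where the highest adjusted p was 0.0772, and was kept only without vehicle library 2 or EZHi library 1.

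HOTAIR, a long non-coding RNA studied for its binding to PRC2, was at 2.62, 2.59, 2.63 and 2.61 in vehicle and at 3.49, 3.30, 2.62 and 3.22 in EZHi libraries. EZHi library 3 was at the vehicle level, and the remaining EZHi libraries were above every vehicle library. The vehicle libraries spanned only 0.042 log2 unit, as occurs near the floor, where levels may not reflect measured reads. The size of the HOTAIR difference and its error are therefore uncertain. The log2 fold change was 0.55 ± 0.16 (SE), with an adjusted p of 0.0567, so HOTAIR was not called. With the replicate number as a block it was called (adjusted p = 0.0187), which gave 20 members called higher where 14.9% of all genes were, and it was also called without EZHi library 3 (0.73, adjusted p = 0.00116).

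HOTAIRM1, at the anterior end of HOXA, was the one tested member with a lower mean in EZHi libraries, at 4.30, 3.93, 3.93 and 4.01 in vehicle and at 3.94, 3.88, 3.85 and 3.70 in EZHi libraries. The groups overlapped, and the difference of -0.20 ± 0.11 (SE) had an adjusted p of 0.297. Under quantile normalization it became -0.41 with an adjusted p of 0.0471, and the small positive differences of HOXA2, HOXA4, HOXA5, HOXA6, HOXA-AS3, HOXC10 and HOXC13-AS turned negative without being called. HOXA-AS2, HOXA-AS3, HOXA11-AS, HOXC13-AS and HOXD-AS2 had log2 fold changes of 0.11, 0.01, 0.22, 0.09 and 0.32, and were not called. Of these, HOXA11-AS and HOXD-AS2 had every EZHi library above every vehicle library.

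Antisense transcripts were then compared with the coding genes they overlap. Among tested members, 9 couples reported here shared exon bases on opposite strands. Called coding genes stood beside antisense transcripts that were not called in 4 of them. Reads were counted without strand in union mode, which assigns a read over exons of both partners to neither. The value of each partner therefore rests on the bases it does not share. Bases shared with the other strand made up 62.5% of the exon bases of HOXA7, 27.2% for HOXA11 and 7.3% for HOXC13. The coding gene changed more by 1.78 for HOXA7 and HOXA-AS3, by 1.46 for HOXC13 and HOXC13-AS, by 1.19 for HOXA11 and HOXA11-AS, and by 1.03 for HOXD3 and HOXD-AS2. Of these transcripts, HOXC13-AS was testable only through its EZHi libraries. Each of these differences had the smallest p that the exact permutation test allows with n = 4 per group (0.0286). Libraries were again treated as unpaired. Their adjusted p was 0.0643 over 9 couples, the lowest that 4 couples at the smallest p can reach. The threshold could therefore not be passed, and the adjusted values decide nothing about these couples. In the other 5 couples neither partner was called, and the differences ran from -0.08 to 0.05.

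**Figure D4:**
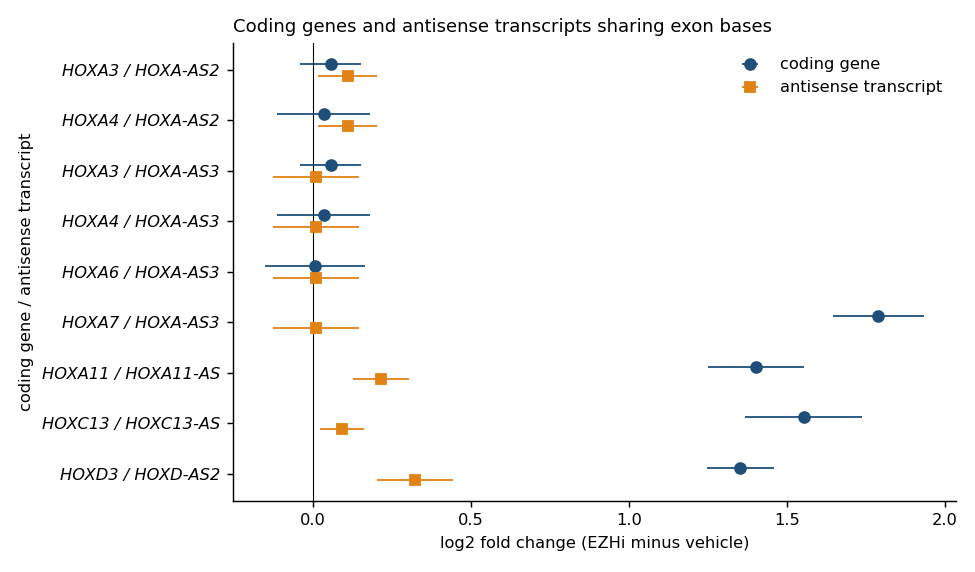
Log2 fold change (EZHi minus vehicle) of coding genes (circles) and of antisense transcripts sharing exon bases with them (squares), in 9 couples, with standard errors as bars. The lower 4 couples have the coding gene at 1.35 to 1.79 and the antisense transcript at 0.01 to 0.32, and the upper 5 have both near 0. Reads were counted without strand, and HOXC13-AS was testable only through its EZHi libraries.

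The 12 members below the limit were at 0.00881 to 0.0984 estimated FPKM in vehicle. HOTTIP, HOXC4 and HOXD12 had every EZHi library above every vehicle library, compared with 10.3% of all genes below the limit. When all genes were tested without the limit, these 3 members were called higher (adjusted p = 0.00803, 0.0367 and 0.0421), with differences of 0.34, 0.18 and 0.21, which gave 22 members called higher where 8.28% of all genes were. Of the genes below the limit, 7.43% were called higher in that fit. The remaining 9 differed by -0.02 to 0.12. In 22 of the 46 members the vehicle libraries spanned less than 0.1 log2 unit, as occurs for values near the floor of the scale.

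EZHi libraries differed in how far the members rose. Among the 5 called coding genes of HOXA, library 2 was highest in 4 and library 3 lowest in 3, and the same counts held for the 5 of HOXC. Among the 7 of HOXD, library 2 was highest in 3, library 3 was highest in 2 and lowest in 0, and library 4 was lowest in 4. Relative to the vehicle library of equal number, the mean rise in library 3 was 0.95 in HOXA, 0.99 in HOXC and 1.43 in HOXD, while in library 2 it was 1.51, 1.49 and 1.30. Leaving out both libraries numbered 3 gave 19 members called higher, with HOXC-AS1 lost (adjusted p = 0.101) and HOTAIR gained (0.73, adjusted p = 0.00319).

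Further transcripts within the cluster bounds that did not match the symbols included HAGLR, a long non-coding RNA beside HOXD1. HAGLR was the most abundant, at 40.3 estimated FPKM in vehicle and 51.8 in EZHi libraries, and was called higher by 0.37 (adjusted p = 0.0383). HAGLROS (0.43, adjusted p = 0.0277) and MIR10B (0.32, adjusted p = 0.0282), a microRNA gene upstream of HOXD4 whose vehicle libraries had an SD of only 0.0017, were called as well. These 3 were among 7 tested of 10 such genes, and the called ones all lie in HOXD. Over all genes tested, 8.85% were called higher. The other tested genes, in HOXB and HOXC, had vehicle SDs of at most 0.0046, as occurs near the floor of the scale.

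Genes flanking the clusters were examined within 500 kb. Of 61 such genes 48 were tested, of which 4 were called higher and 1 lower, against 8.85% and 4.27% of all genes, with a median log2 fold change of 0.0024. LINC02381, 69.99 kb from HOXC, rose by 2.68 (adjusted p = 4.26e-06), which is more than any member, from 0.267 to 1.72 estimated FPKM. ITGA5, an integrin subunit 339 kb from HOXC, rose by 1.61 (0.000512). TTLL6 at 33.5 kb and B4GALNT2 at 404 kb from HOXB rose by 0.76 and 1.04, and the pseudogene EIF4HP1 at 251 kb from HOXA fell by 0.33 (adjusted p = 0.0281). With the replicate block 12 of these genes were called instead of 5.

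TALE homeodomain proteins (PBX, MEIS and PKNOX) bind DNA together with HOX proteins, and 8 of 9 were testable, of which 2 were called, both higher. The share called higher over all genes tested was 8.85%. MEIS3 rose by 2.06 (adjusted p = 3.23e-05), from 0.859 to 3.64 estimated FPKM. The genes not called included MEIS1 (0.10) and MEIS2, the most abundant of them, at 12.8 and 10.5 estimated FPKM (-0.28, adjusted p = 0.0576, and 0.0077 with the replicate block).

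Of 17 listed regulators of HOX clusters, 13 were tested, and 2 were called, both higher. Over all genes tested 8.85% were called higher, and 13.8% of those under an estimated FPKM of 1, where both called regulators lie. CDX2, an intestinal homeodomain factor that acts on HOX clusters in the embryo, rose by 1.91 (adjusted p = 2.35e-05), from 0.144 to 0.546 estimated FPKM. CYP26B1, which degrades retinoic acid, rose by 1.69 (adjusted p = 0.000194). EZH2, EZH1, EED and SUZ12, the subunits of PRC2, differed by -0.06, -0.07, -0.11 and -0.11 and were not called. RARA, a retinoic acid receptor, differed by -0.31 (adjusted p = 0.08, and 0.0234 with the replicate block).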

How the data were processed

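The authors mapped reads to hg38 with HISAT2 (version 2.2.1 per the labels), assigned them to the exons of genes with HTSeq (0.9.1) in unstranded mode, dropped the genes with the fewest reads, applied the regularized log of DESeq2 (1.40.2) and corrected for mean transcript length. The deposited values are therefore log2 values, although their table is named as FPKM. The regularized log shrinks differences of genes with few reads, so fold changes of low genes are understated. Read depth is unknown, and no interval from counting error is given.

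The table held 25604 rows, of which 1 repeated another and was dropped. Coordinates, strands and exons came from GENCODE release 44 (GRCh38), and promoters from RefSeq. An estimated FPKM is 2 to the deposited value divided by 25.6, the mean over libraries of the length-multiplied values summed in units of 1000000 (24.4 to 27.3). Genes with a mean of at least 0.1 were tested with limma 3.58.1 in R 4.3.3 (trended prior, group only, two-sided, Benjamini-Hochberg adjustment over 20153 genes). Single differences between members were tested by exact permutation in Python 3.11.15 with scipy 1.17.1. The values of 1 member and of 1 listed gene are not reported here, although both enter the counts. Members, gene lists and tests were chosen with earlier results of these data known. Members were named by cluster, with library values for the 3 largest called changes in each, other members by their changes or levels, and listed genes where called, with HOTAIR, HOTAIRM1 and the uncalled genes of other lists added after their values were seen.

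Replicate numbers in the titles paired the libraries, since deviations from the group means correlated between equal numbers at 0.31, 0.56, 0.63 and 0.22. The fit was tested on simulated data. Alternatives were quantile normalization, centring on genes of estimated FPKM 10 and over, filters at 1 and at none, a pseudocount of 0.5, the replicate block and leaving out libraries.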

Additional observations from a re-analysis of the deposited data

Results flagged for a closer look

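Within groups of 4 libraries, 1 library stood apart from the other 3 by Dixon's criterion in 4 of 68 member groups, where about 3.4 are flagged by chance. HOXA11-AS was at 1.85 in vehicle library 1 and at 1.74 to 1.75 in the others. HOXB7 was at 2.33 in vehicle library 3 and at 2.22 to 2.23 in the others. HOXD13 was at 2.40 in EZHi library 2 and at 1.96 to 2.01 in the others. HOXD11 was at 1.88 in EZHi library 1 and at 2.26 to 2.29 in the others. HOXB7, HOXD11 and HOXD13 were called in each fit with 1 library left out.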

How the results depend on the processing

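The number of members called higher was 19, and it was 17 under quantile normalization, 21 after centring, 22 without a filter, 20 with the replicate block and 17 to 19 with 1 library left out. With a filter at an estimated FPKM of 1, where 5 members remained, 2 were called. The number called lower was 0, and 1 under quantile normalization. The median log2 fold change was 0.34 under quantile normalization, 0.11 with the filter at 1, 0.21 without a filter, 0.16 with a pseudocount of 0.5, and 0.45 to 0.51 with 1 library left out. Over all genes, 2644 were called, 1579 with the filter at 1, 6051 with the replicate block and 1811 to 2571 with 1 library left out. With the filter at 1, the number called was 1 for TALE genes, 0 for regulators and 2 for genes beside the clusters, and the block gave 12 for the last. The block removed no call of a member. The median change of all genes tested was -0.059 under quantile normalization and 0.088 after centring. HOXA9 (0.35, adjusted p = 0.0733 by limma) and HOXC-AS1 (0.21) were not called under quantile normalization. HOTAIR (0.64, adjusted p = 0.0248) and HOXA11-AS (0.31, 0.0469) were called after centring.

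Under these alternatives, signs of the members reported singly changed only where they were not called. Under quantile normalization they became -0.067 for HOXA2, -0.18 for HOXA4, -0.052 for HOXA5, -0.21 for HOXA6, -0.025 for HOXC10, -0.032 for HOXC13-AS and -0.17 for HOXA-AS3. HOXA-AS3 was at -0.00076 with a pseudocount of 0.5, and HOXA4 at -0.043 without both libraries numbered 3, an alternative chosen after seeing the data. With 1 library left out, the ranges were -0.0033 to 0.11 for HOXA3, -0.047 to 0.16 for HOXA4, -0.024 to 0.12 for HOXA5, -0.091 to 0.15 for HOXA6 and -0.079 to 0.13 for HOXA-AS3. The causes were not tested. The alternatives for the TALE, regulator and flanking lists were also added after seeing the data.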
